A study of Caenorhabditis elegans with 16 samples.

Results

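The expressed chemoreceptor genes described here are 94 of the 1293 genes in the deposited table whose symbols belong to 19 chemoreceptor families of Caenorhabditis elegans (sra, srab, srb, srbc, srd, sre, srg, srh, sri, srj, srsx, srt, sru, srv, srw, srx, srxa, srz and str). A gene was taken when its mean reached 0.5 FPKM, a fragment count scaled for gene length and library size, in at least 1 of the 4 groups of the study. The genes were therefore selected on the group mean FPKM itself, and of the 94, 44 reached it in EMBRYO TM, 82 in EMBRYO CNT, 29 in L4 TM and 30 in L4 CNT. The limit was reached by 45 genes in 1 group, which was EMBRYO CNT for 40 of them, 26 in 2 groups, 4 in 3 groups and 19 in all 4 groups. Just inside the limit, the highest group mean was 0.506 FPKM for srd-35 and 0.512 for srh-46, and just outside it was 0.495 for sra-33 and 0.499 for srw-89.

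RNA was sequenced from whole wild-type N2 worms in 4 groups of 4 libraries, each library from a separate plate: EMBRYO TM, EMBRYO CNT, L4 TM and L4 CNT. Tunicamycin (TM) blocks N-linked glycosylation of proteins in the endoplasmic reticulum and so causes stress there, and it was given at 1.25 µg/ml for 24 h in S medium, either to embryos obtained by bleaching (EMBRYO TM) or to larvae of the fourth stage (L4 TM). EMBRYO CNT and L4 CNT are the untreated worms of the same stage, all 4 groups carry no transgene or mutation, and all are described as Day 1 adults, although the authors' own group means are headed L1 for the EMBRYO groups and D1 for the L4 groups. The adult collagen gene col-19 had 1096 to 1228 FPKM in EMBRYO TM, against 935 to 1197 in EMBRYO CNT, and 248 to 936 FPKM in L4 TM, against 430 to 1076 in L4 CNT. The lowest values were those of L4 TM replicate 4, the others of L4 TM having at least 912 FPKM, and of L4 CNT replicate 2.

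Chemoreceptors of this kind are G protein-coupled receptors with several membrane-spanning segments. Most of those studied are made in a few ciliated sensory neurons of the head and tail each, where they reach the cilia with the help of ODR-4 and ODR-8 and bind odours, tastes or pheromones. They signal through G protein alpha subunits such as ODR-3 and GPA-3 to cyclic nucleotide-gated channels (TAX-2, TAX-4) or to TRPV channels (OSM-9, OCR-2). Most of the genes lie in arrays of near relatives, many of them on chromosome V, and the ligand of nearly all is unknown.

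The number of reads on genes, recovered from the FPKM values, was 12361026 to 26922902 in 15 libraries and 47193068 in L4 TM replicate 4. At these depths 0.5 FPKM of a gene of 1 kb was worth 6.21 to 12.7 reads in the 15 libraries and 23.5 reads in L4 TM replicate 4. That replicate stood apart, since genes with exactly 1 read made up 0.702% of those detected in it but 8.97% to 10.9% in each of the 15 others. Of the 94 genes, 44 had no read in it, against 25 to 29 in the other L4 TM libraries, 14 to 18 in L4 CNT, 4 to 9 in EMBRYO TM and up to 2 in EMBRYO CNT. Calls of the 94 genes in L4 TM against L4 CNT are given with and without it. Without L4 CNT replicate 2 the counts of calls among the 94 genes were the same, except for 13 positive interactions in place of 14. Intervals and tests cover the spread between plates, and most of the 94 genes rest on few reads, with a median of 2.5 to 19.5 reads per gene and library.

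The 94 genes came from 18 of the 19 families, and the share of a family that was expressed differed widely. It was highest in srv with 7 of 30 genes (23.3%), followed by sra with 6 of 35 (17.1%), sri with 10 of 61 (16.4%) and srsx with 6 of 37 (16.2%). Over all families the share was 7.27%. The largest family, srh, gave the most genes, 12 of 220 (5.45%), and str gave 5 of 193 (2.59%). No srt gene of 61 was among them. Chromosome V held 48 of the 94 genes (51.1%), against 877 of all 1293 (67.8%), and chromosome II held 25 (26.6%), against 169 (13.1%). Only 42 of the 94 reached 1 FPKM in any group and 5 reached 10 FPKM. Of all 1293 genes, 18.1% had no read in any of the 16 libraries.

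The 4 highest genes held 44.7% of the summed signal in EMBRYO TM, 47.8% in EMBRYO CNT, 67.2% in L4 TM and 65.3% in L4 CNT. In EMBRYO TM srv-1 held 13.8% of the sum over the 94 genes, srw-86 11.3%, sri-40 9.92% and str-176 9.57%. In EMBRYO CNT the order was led by srw-86 with 25.4%, followed by str-176 with 10.1%. At the L4 stage the same 3 genes led both groups, sri-40 (28.4% in L4 TM and 23.4% in L4 CNT), str-176 (18.5% and 18.6%) and srv-1 (18% and 19.1%). The median of the 94 genes was 0.437 FPKM in EMBRYO TM, 0.779 in EMBRYO CNT, 0.132 in L4 TM and 0.218 in L4 CNT. Of these genes, str-176 is annotated as a pseudogene.

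**Figure D1:**
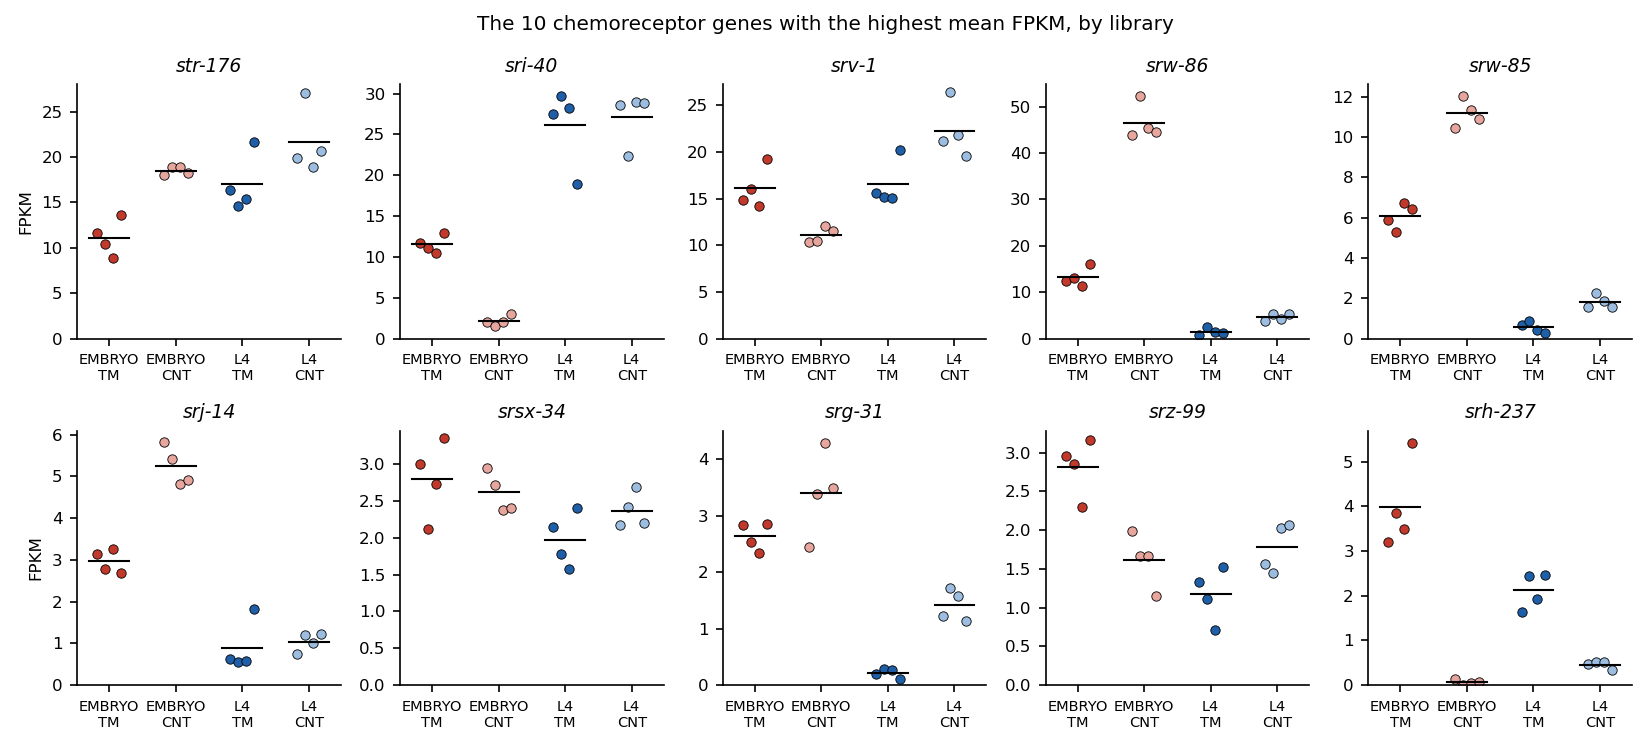
FPKM (vertical axes, starting at 0) of the 10 chemoreceptor genes with the highest mean over the 16 libraries; points are libraries and bars the mean of each group of 4. The 4 EMBRYO CNT libraries lie between 43.8 and 52.2 FPKM for srw-86, above every other library, and all 8 L4 libraries of sri-40 lie above the EMBRYO CNT libraries.

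srw-86 (C25F9.7, chromosome V, positions 19400142 to 19400715 on the minus strand as deposited, genome build not stated) is a member of the srw family, whose sequences resemble receptors for neuropeptides. Its level was 12.5, 13, 11.3 and 16 FPKM in EMBRYO TM, against 43.8, 52.2, 45.4 and 44.5 FPKM in EMBRYO CNT. At the L4 stage it was 0.664, 2.59, 1.31 and 1.13 FPKM in L4 TM, against 3.87, 5.37, 4.30 and 5.31 FPKM in L4 CNT. No TM library overlapped with the controls of its stage, and every L4 library lay below every EMBRYO library. On the log2(FPKM + 0.25) scale the gene fell by 1.81 ± 0.11 (SE) in EMBRYO TM (limma adjusted p = 3.15e-05) and by 1.68 ± 0.34 in L4 TM (limma adjusted p = 0.0164, and 0.0343 without L4 TM replicate 4). Without L4 CNT replicate 4 the adjusted p of the L4 fall was 0.0519. In L4 CNT it was 3.24 ± 0.12 lower than in EMBRYO CNT on that scale, and the 2 TM effects differed by 0.13 ± 0.34 (limma adjusted p = 0.845).

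srw-85 (C25F9.1, chromosome V, 19429440 to 19431039), the other abundant srw gene, followed the same order of groups. Its level was 5.90, 5.29, 6.72 and 6.45 FPKM in EMBRYO TM, against 10.4, 12.0, 11.3 and 10.9 FPKM in EMBRYO CNT. In L4 TM it was 0.666, 0.847, 0.425 and 0.267 FPKM, against 1.57, 2.27, 1.85 and 1.57 FPKM in L4 CNT. Neither pair of groups overlapped. The EMBRYO difference of -0.85 ± 0.09 was within the fold change limit of 1 (limma adjusted p = 3.16e-04), while srw-85 fell by 1.41 ± 0.26 in L4 TM (limma adjusted p = 0.0115, and by 1.22 without L4 TM replicate 4, adjusted p = 0.012).

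sri-40 (Y27F2A.3, chromosome II, 3177966 to 3179965) exceeded its EMBRYO CNT level in EMBRYO TM, and was higher again in both L4 groups. Its level was 11.7, 11.1, 10.5 and 12.9 FPKM in EMBRYO TM, against 1.98, 1.51, 2.02 and 2.94 FPKM in EMBRYO CNT, a mean 5.45-fold higher. The rise was 2.35 ± 0.18 on the log2 scale (limma adjusted p = 7.86e-05). At the L4 stage the groups overlapped, with 27.5, 29.7, 28.3 and 19 FPKM in L4 TM, against 28.6, 22.4, 29 and 28.8 FPKM in L4 CNT. The L4 difference was -0.07 ± 0.16 (limma adjusted p = 0.897), and without L4 TM replicate 4, the lowest of its group, it was 0.08. L4 CNT was 3.56 ± 0.19 higher than EMBRYO CNT on the log2 scale (limma adjusted p = 3.02e-06), so that the level in EMBRYO TM lay between those of the 2 control groups. The TM effects at the 2 stages differed by -2.42 ± 0.24, coded as the L4 effect minus the EMBRYO effect (limma adjusted p = 2.48e-06).

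srh-237 (T05E12.7, chromosome V, 17090390 to 17091614, plus strand) had the largest rise of the 94 genes in both TM groups. It had 44, 47, 40 and 92 reads in EMBRYO TM, against 2, 0, 1 and 1 reads in EMBRYO CNT, which is 3.21, 3.84, 3.49 and 5.41 FPKM against 0.136, 0, 0.0504 and 0.0675 FPKM. At the L4 stage the levels were 1.63, 2.43, 1.93 and 2.47 FPKM in L4 TM, against 0.469, 0.513, 0.506 and 0.338 FPKM in L4 CNT. Neither pair of groups overlapped. The log2 difference was 3.75 ± 0.21 in EMBRYO TM (limma adjusted p = 2.02e-05) and 1.74 ± 0.17 in L4 TM (limma adjusted p = 7.66e-04, and 1.66 without L4 TM replicate 4). With so few reads in EMBRYO CNT the first value depended on the pseudocount, from 2.21 with a pseudocount of 1 to 4.68 with 0.1, and it was 5.67 in limma's voom test on the recovered reads. The TM effect differed between the stages by -2.01 ± 0.28 (limma adjusted p = 9.05e-05, and by -2.09 without L4 TM replicate 4). This value also depended on the scale, with -1.12 at a pseudocount of 1, -2.69 at 0.1 and -3.47 by voom, and the difference of L4 CNT from EMBRYO CNT was 1.18 on the scale used but 0.45 at a pseudocount of 1, within the fold change limit.

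The gene nearest to srh-237 moved with it. T05E12.6, 367 bases away on the other strand, had 39.3 to 52.1 FPKM in EMBRYO TM, against 0.151 to 0.270 in EMBRYO CNT, and 24.7 to 37.3 in L4 TM, against 4.43 to 5.96 in L4 CNT. Its log2 differences were 6.62 ± 0.12 in EMBRYO TM and 2.40 ± 0.16 in L4 TM (limma adjusted p = 4.93e-07 and 1.86e-04). ZK218.1, 956 bases away on the strand of srh-237, had 0.763 to 1.03 FPKM in EMBRYO TM, against 0 to 0.170 in EMBRYO CNT. Whether the counting used strand is not stated for these libraries, and the part of these neighbours in the reads of srh-237 was not tested.

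Other genes named here also had a more abundant neighbour within 1 kb that moved the same way; these pairs were picked after their values were seen. srh-2 (C05E4.14, chromosome V, 728309 to 734279) had 0.0402, 0.219, 0 and 0 FPKM in L4 TM, against 0.631, 0.948, 1.12 and 1.04 FPKM in L4 CNT, and fell by 1.94 ± 0.25 (limma adjusted p = 0.00245, and by 1.85 without L4 TM replicate 4). The glyoxylate cycle gene icl-1, 206 bases away on the other strand, had 54 to 59 FPKM in L4 TM, against 141 to 170 in L4 CNT, and fell by 1.48 ± 0.07 (limma adjusted p = 5.76e-05). In the EMBRYO groups the pair did not move together. There srh-2 had 0.130 to 0.323 FPKM in EMBRYO TM, against 0.299 to 0.857 in EMBRYO CNT, and icl-1 had 32.6 to 70.4 FPKM, against 50.3 to 62.7.

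srg-32 (T21C9.7, chromosome V, 10587167 to 10588794) had 0.294, 0.0826, 0.353 and 0.475 FPKM in EMBRYO TM, against 1.72, 2.04, 1.94 and 1.91 FPKM in EMBRYO CNT, a log2 difference of -2.02 ± 0.24. Its nearest neighbour, T21C9.6, 49 bases away on the other strand, was higher, with 9.41 to 11.9 FPKM in EMBRYO TM, against 7.27 to 7.60 in EMBRYO CNT (log2 difference 0.53, limma adjusted p = 0.00217). The neighbour ttr-23, a transthyretin-like gene 298 bases away on the same strand, had 4.24 to 7.98 FPKM in EMBRYO TM, against 34.7 to 44.2 in EMBRYO CNT. srg-15 (C34C6.1, chromosome II, 8709069 to 8710413) had 0.0697, 0, 0.167 and 0 FPKM in EMBRYO TM, against 0.587, 0.643, 0.820 and 0.969 FPKM in EMBRYO CNT, a log2 difference of -1.72 ± 0.22. cup-16, 215 bases from it on the other strand, had 12.5 to 25.1 FPKM in EMBRYO TM, against 79.4 to 90.6 in EMBRYO CNT. The EMBRYO CNT level is what admitted srg-32 and srg-15, so their differences are given with no test. Among the 32 genes lower in EMBRYO TM, 25 had a gene overlapping them or within 1 kb. For 5 of these at least 1 such neighbour outside the 94 was itself called lower, against 9.49% of all genes tested. Some of the genes have more than 1 neighbour, and the 32 rest on the selection, so this count is a description. The part of the neighbours in these differences was not tested.

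**Figure D2:**
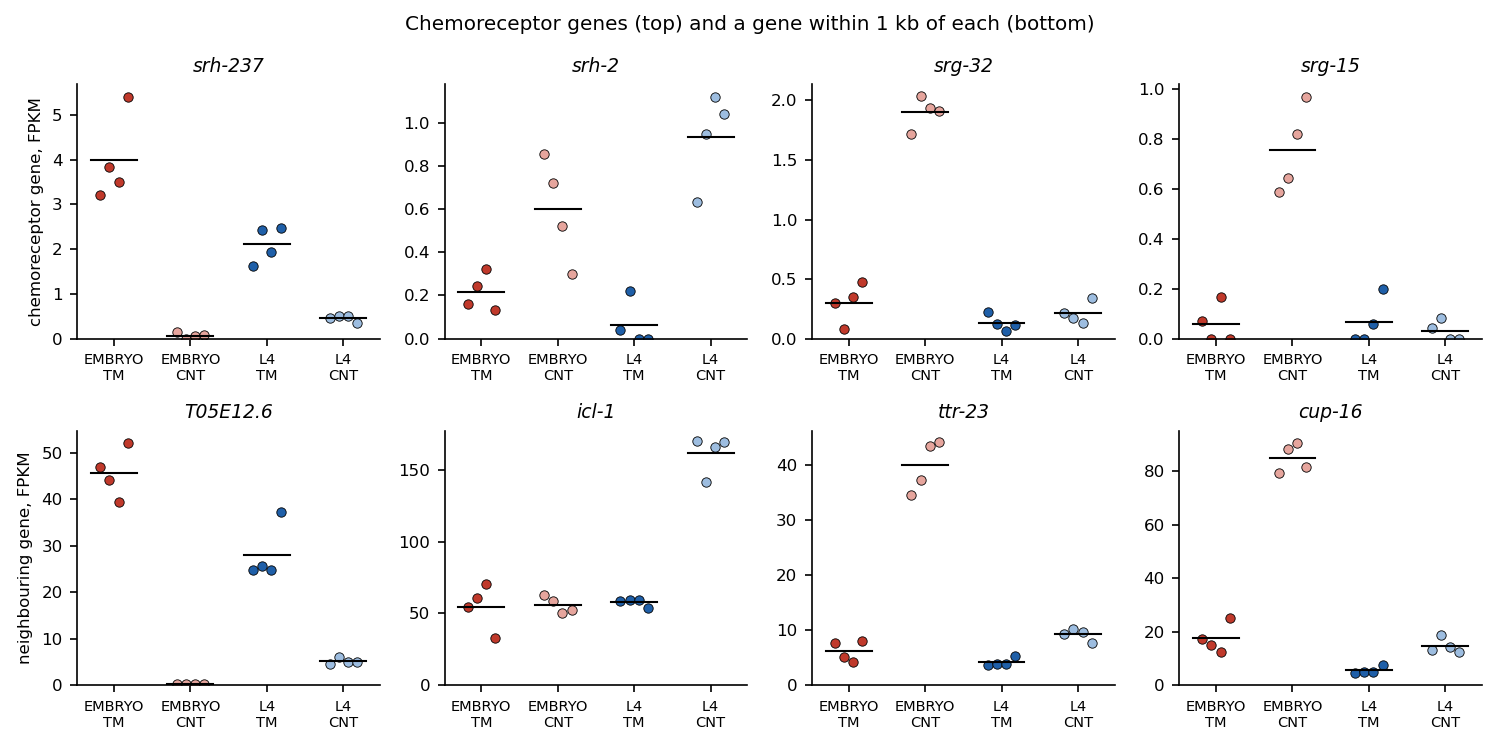
FPKM (vertical axes, starting at 0) of 4 chemoreceptor genes in the top row and of a gene within 1 kb of each in the bottom row; points are libraries and bars group means. The 4 EMBRYO TM libraries stand above EMBRYO CNT for both srh-237 and T05E12.6, and below it for srg-32, ttr-23, srg-15 and cup-16, while srh-2 and icl-1 are both lower in L4 TM than in L4 CNT.

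The first comparison asked which of the 94 genes differed in Day 1 worms that had met TM as embryos. In EMBRYO TM 3 genes were higher and 32 lower than in EMBRYO CNT, by a limma adjusted p under 0.05 and a log2 difference beyond 1. Among all 21102 genes tested, 4.88% were called higher and 9.49% lower. Nothing can be read from the count of 32, because the rule admitted many genes through EMBRYO CNT itself. When the genes were split by the L4 groups, which had no part in the comparison, 34 reached 0.5 FPKM in L4 TM or L4 CNT and would have been taken without any EMBRYO library. Of these 34, 3 were higher (8.82%) and 2 lower (5.88%), with a median log2 difference of 0.06, against -0.12 over all genes tested. The other 60 were taken through an EMBRYO group alone, and 30 of them were lower, with a median of -1.0.

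**Figure D3:**
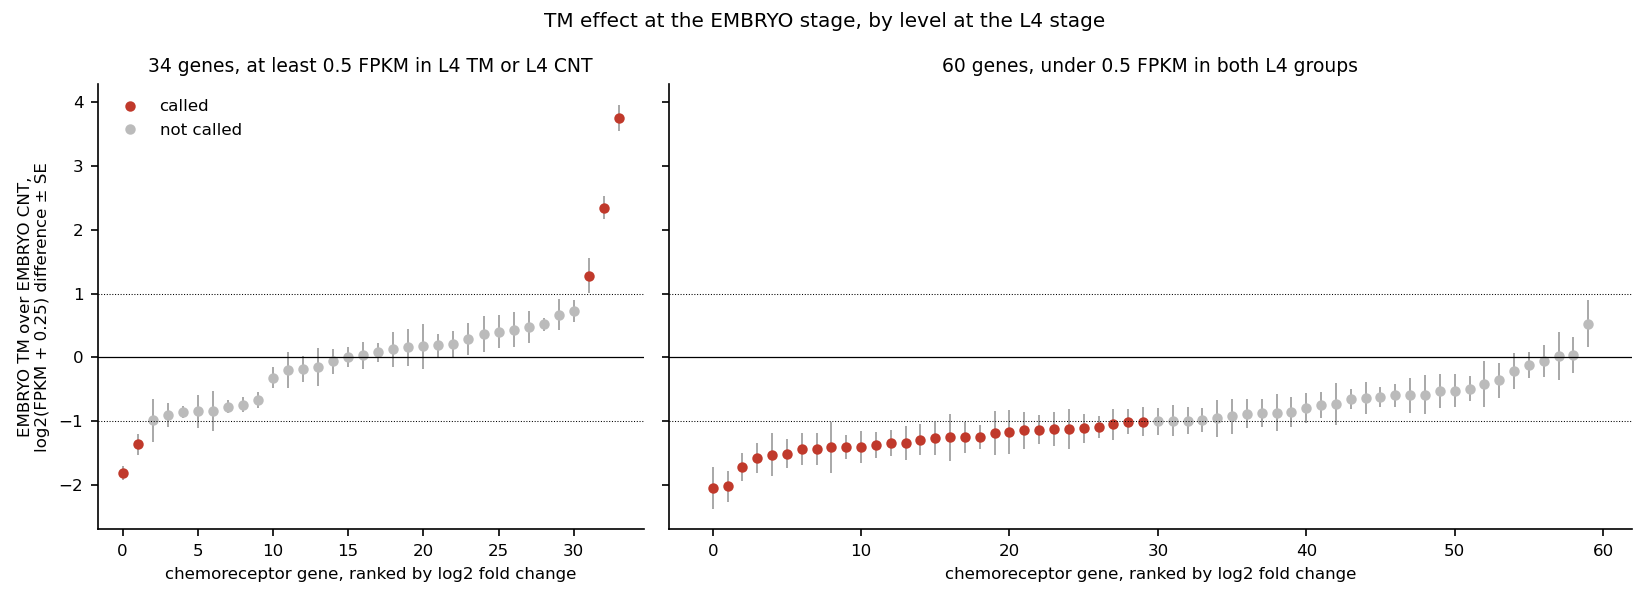
Difference between EMBRYO TM and EMBRYO CNT on the log2(FPKM + 0.25) scale with its SE (vertical axis) for the 94 genes, ranked within 34 genes that reached 0.5 FPKM in an L4 group (left) and 60 that did not (right); dotted lines mark log2 differences of 1 and -1. Red points passed both thresholds: 3 higher and 2 lower on the left, and 30 lower on the right.

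The 3 genes that rose in EMBRYO TM were srh-237, sri-40 and srd-64. srd-64 (Y22D7AR.8, chromosome III, 1692081 to 1695106) had 2.24, 2.73, 2.92 and 1.81 FPKM in EMBRYO TM, against 1.29, 0.993, 0.820 and 0.427 FPKM in EMBRYO CNT, without overlap (log2 difference 1.28 ± 0.28, limma adjusted p = 0.00852). At the L4 stage srd-64 had 0.982, 0.910, 0.620 and 3.57 FPKM in L4 TM, against 1.23, 1.31, 1.08 and 0.917 FPKM in L4 CNT. The value of 3.57 was that of L4 TM replicate 4, while the other L4 TM libraries lay within or below the range of L4 CNT. 2 more genes of the 94 passed the adjusted p with a smaller rise, srv-1 and srz-99.

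srv-1 (R13F6.3, chromosome III, 6851252 to 6853131) had 14.9, 16.1, 14.2 and 19.2 FPKM in EMBRYO TM, against 10.4, 10.4, 12.1 and 11.5 FPKM in EMBRYO CNT (log2 difference 0.52 ± 0.10, limma adjusted p = 0.00647). In L4 TM it had 15.6, 15.1, 15.1 and 20.2 FPKM, against 21.2, 26.4, 21.8 and 19.5 FPKM in L4 CNT. Only L4 TM replicate 4 reached into the control range, and the L4 difference was -0.42 ± 0.13 (limma adjusted p = 0.0665, and -0.52 with adjusted p = 0.0171 without that replicate). The end of srv-1 overlaps with the end of zak-1 on the other strand, which had lower group means of 2.15 to 3.19 FPKM. srz-99 had 2.30 to 3.16 FPKM in EMBRYO TM, against 1.14 to 1.99 FPKM in EMBRYO CNT (log2 difference 0.73 ± 0.17, limma adjusted p = 0.0129).

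Beside srw-86, srg-32 and srg-15, the most negative differences in EMBRYO TM were those of srv-4, sri-21 and srx-56, all under 0.5 FPKM in the other 3 groups. srv-4 (F15E6.7, chromosome IV, 4285422 to 4288432) had 0, 3, 4 and 8 reads in EMBRYO TM, against 23, 33, 43 and 21 reads in EMBRYO CNT (log2 difference -2.04 ± 0.33). sri-21 had 9, 4, 2 and 6 reads in EMBRYO TM, against 24, 21, 36 and 26 reads in EMBRYO CNT (log2 difference -1.57 ± 0.23). srx-56 had 0, 1, 1 and 0 reads in EMBRYO TM, against 4, 17, 18 and 5 reads in EMBRYO CNT, and no read in any L4 library (log2 difference -1.52 ± 0.34). None of these groups overlapped, but the EMBRYO CNT level of such genes is what admitted them, so no test is given. The count of genes lower in EMBRYO TM depended strongly on the pseudocount, with 45 at 0.1 and 4 at 1, whereas srw-86 was called lower with each.

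Of 25 chemoreceptor genes of these families with a published place of expression or function, listed by hand, only sra-6 was among the 94, and the other 24 had group means of at most 0.418 FPKM. sra-6 (AH6.10, chromosome II, 9548405 to 9549698) is known from the ASH and ASI sensory neurons and the PVQ interneurons. It had 0.618, 0.631, 0.809 and 0.590 FPKM in EMBRYO TM, against 1.58, 2.12, 1.91 and 1.25 FPKM in EMBRYO CNT, a log2 difference of -1.09 ± 0.18, with no test given because the EMBRYO groups admitted it. It had no read in the 4 L4 TM libraries, against 6, 6, 0 and 4 reads in L4 CNT (limma adjusted p = 0.112, and 0.163 without L4 TM replicate 4). For sra-6, L4 CNT was 2.21 ± 0.30 lower than EMBRYO CNT on the log2 scale, again with no test given.

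The second comparison asked the same of worms treated at the L4 stage. In L4 TM 1 gene of the 94 was higher than in L4 CNT, srh-237, and 4 were lower, srw-86, srw-85, srh-2 and srg-31, against 0.488% higher and 2.79% lower among all 21102 genes tested. All 5 reached 0.5 FPKM in an EMBRYO group, as did 85 of the 94 genes, so that their place among the 94 did not rest on an L4 library. Without L4 TM replicate 4 the counts were 1 higher and 5 lower, which included the same 4. The median log2 difference of those 85 genes was -0.28, against 0 over all genes tested. The number of lower genes was again sensitive to the scale, with 9 at a pseudocount of 0.1, 1 at a pseudocount of 1 and 13 by voom on the recovered reads.

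srg-31 (T07H8.5, chromosome V, 6950835 to 6953897) had 0.198, 0.288, 0.265 and 0.0983 FPKM in L4 TM, against 1.22, 1.71, 1.58 and 1.13 FPKM in L4 CNT, a mean 0.151 times as high. It fell by 1.85 ± 0.19 (limma adjusted p = 9.12e-04, and by 1.72 without L4 TM replicate 4). In EMBRYO TM it had 2.84, 2.54, 2.34 and 2.86 FPKM, against 2.45, 3.38, 4.29 and 3.49 FPKM in EMBRYO CNT, with overlap (log2 difference -0.32 ± 0.17, limma adjusted p = 0.178). The difference between the TM effects was -1.53 ± 0.27 (limma adjusted p = 6.78e-04). The fall of srg-31 in L4 TM was thus larger than its difference in EMBRYO TM by more than the spread between plates.

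The interaction of stage and treatment was called for 20 of the 94 genes, 14 with a positive and 6 with a negative value, against 4.58% and 5.54% of all genes tested. The groups of this test include those that chose the genes, so the count of 14 is a description. All 14 had L4 CNT means of at most 0.259 FPKM, resting on 0 to 22 reads over the 4 libraries, and 13 of them were called lower in EMBRYO TM. A gene at 0.259 FPKM can fall by at most 1.03 on this scale. The largest positive values were 1.85 ± 0.38 for srg-15, 1.73 ± 0.35 for srg-32, 1.72 ± 0.40 for srv-4, 1.68 ± 0.44 for srg-23, 1.62 ± 0.42 for srh-212 and 1.56 ± 0.44 for sri-21. With voom on the recovered reads 6 positive calls were made, and those of srv-4 and sri-21 were lost (adjusted p = 0.354 and 0.344), and with a pseudocount of 1 there were 2. srg-23 had no read in L4 CNT, so its value depends on the pseudocount. With a mean of at least 1 FPKM required, the 6 negative calls were made and the 14 genes of the positive calls were no longer tested.

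The 6 negative values were those of sri-40, srh-237, srg-31, srj-29, srz-99 and str-245, and all 6 genes had at least 0.457 FPKM in L4 CNT. srj-29 (F22B8.1, chromosome V, 16075659 to 16077387) had 1.16, 1.42, 1.45 and 2.09 FPKM in EMBRYO TM, against 0.670, 0.646, 0.838 and 1.38 FPKM in EMBRYO CNT, and 0.370, 0.493, 0.896 and 0.367 FPKM in L4 TM, against 1.29, 1.36, 1.19 and 0.938 FPKM in L4 CNT. Its EMBRYO difference was 0.67 ± 0.25 (limma adjusted p = 0.0657), which did not pass the test, and the EMBRYO groups overlapped. Its L4 difference was -0.93 ± 0.23 (limma adjusted p = 0.0336), within the fold change limit, and without L4 TM replicate 4 it was -0.83 (adjusted p = 0.0613). The difference between the TM effects was -1.60 ± 0.35 (limma adjusted p = 0.00382, and -1.50 without that replicate). F14H3.12, 338 bases from srj-29 on the other strand, had 6.06 to 12.3 FPKM in L4 TM, against 24.3 to 26.3 in L4 CNT. The log2 difference of F14H3.12 was -1.297 in L4 TM (limma adjusted p = 0.0096) and -0.249 in EMBRYO TM (limma adjusted p = 0.336). Its interaction was -1.048 (limma adjusted p = 0.0185). The part of F14H3.12 in the differences of srj-29 was not tested. srz-99 had a mean of 1.17 FPKM in L4 TM, against 1.78 FPKM in L4 CNT, and an interaction of -1.27 ± 0.28 (limma adjusted p = 0.00494, and -1.39 without L4 TM replicate 4).

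str-245 (F32A7.7, chromosome I, 14852818 to 14854607) had 0.577, 0.575, 0.615 and 0.673 FPKM in EMBRYO TM, against 0.720, 0.322, 0.665 and 0.356 FPKM in EMBRYO CNT. It had 1.77, 2.40, 1.59 and 1.32 FPKM in L4 TM, against 3.08, 3.83, 3.72 and 3.52 FPKM in L4 CNT. The L4 groups did not overlap, but the difference of -0.93 ± 0.17 stayed within the fold change limit (limma adjusted p = 0.0122, and -0.82 without L4 TM replicate 4). The interaction was -1.14 ± 0.28 (limma adjusted p = 0.00933, and -1.02 without that replicate). str-245 lies within aex-5, a proprotein convertase gene on the other strand with 9.52 to 12.1 FPKM in L4 TM, against 14.5 to 18.8 FPKM in L4 CNT. In EMBRYO TM aex-5 had 25.5 to 33.1 FPKM, against 18 to 23.4 in EMBRYO CNT. Between the control groups aex-5 did not show a higher level in L4 CNT, while str-245 averaged 3.54 FPKM in L4 CNT, against 0.516 in EMBRYO CNT. Without strand, reads where the 2 genes overlap cannot be told apart.

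**Figure D4:**
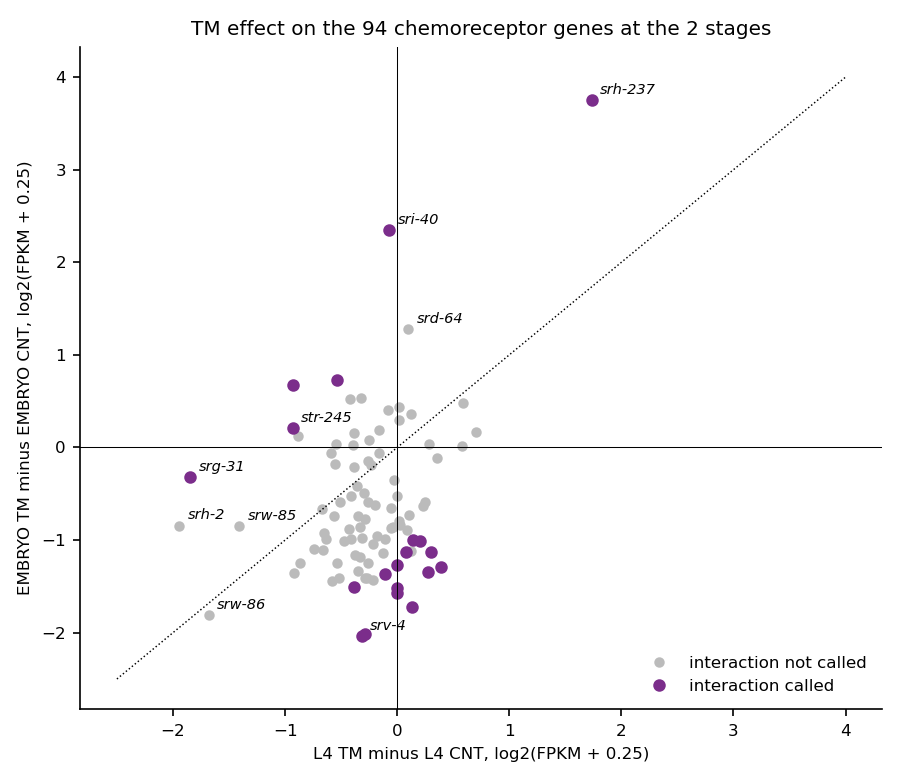
TM effect at the EMBRYO stage (vertical axis) against that at the L4 stage (horizontal axis), both as log2(FPKM + 0.25) differences, for the 94 genes; the dotted line marks equal effects and purple points passed the interaction test. srh-237 and sri-40 have the largest EMBRYO differences, and 13 of the 14 positive interactions are genes called lower in EMBRYO TM, at L4 differences of -0.38 to 0.39.

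The third comparison set the untreated worms of the 2 stages against each other. In L4 CNT 7 of the 94 genes were higher and 60 lower than in EMBRYO CNT, against 11.4% higher and 30.7% lower among all 21102 genes tested. As before, 42 of the 94 were taken through these 2 groups alone, and 38 of them were lower. Of the 52 genes that reached 0.5 FPKM in a TM group, 7 were higher (13.5%) and 22 lower (42.3%), with a median log2 difference of -0.52, against -0.46 over all genes tested. The TM groups were of the same 2 stages, with 44 of the 94 genes at the limit in EMBRYO TM and 29 in L4 TM. This split is therefore not free of the selection, and its counts are a description. The median over all genes was -0.61 after rescaling each library to a common FPKM total and -0.35 after rescaling by median ratios, so differences near these values are not separated from the scaling. Stage, handling and any batch cannot be told apart in this comparison.

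The genes higher in L4 CNT were sri-40, str-245, srsx-36, sri-1, srh-269, srh-237 and sre-9, which had the smallest of these differences (1.07). The L4 groups alone admitted srsx-36, sri-1 and srh-269, so their differences are given with no test. srsx-36 had 1.08, 0.845, 1.03 and 0.677 FPKM in L4 CNT, against 0.0963, 0.0431, 0.107 and 0.0476 FPKM in EMBRYO CNT (log2 difference 1.83 ± 0.14). sri-1 had 0.725, 1.07, 0.339 and 0.353 FPKM in L4 CNT, against 0.0611, 0.109, 0 and 0.0604 FPKM in EMBRYO CNT (log2 difference 1.43 ± 0.28). srh-269 had 0.318 to 0.883 FPKM in L4 CNT, against 0.0573 to 0.0947 FPKM in EMBRYO CNT (log2 difference 1.31 ± 0.20). cpl-1, a cathepsin L gene 529 bases from srh-269 on the same strand, averaged 1692 FPKM in L4 CNT, against 416 FPKM in EMBRYO CNT, and its part in the difference was not tested.

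The largest falls in L4 CNT were, after srw-86, those of sre-6, srh-98, srv-4, srw-85 and sri-30, of which srv-4 was taken through EMBRYO CNT alone. The EMBRYO groups alone admitted sre-6, srh-98 and sri-30, so their differences are given with no test. sre-6 had 0.0357, 0.429, 0 and 0.0472 FPKM in L4 CNT, against 1.88, 3.17, 2.15 and 2.03 FPKM in EMBRYO CNT (log2 difference -2.86 ± 0.34). In EMBRYO TM sre-6 ranged from 0.889 to 3.35 FPKM and overlapped with EMBRYO CNT. F28H7.8, which overlaps sre-6 on the other strand, averaged 3.09 FPKM in L4 CNT, against 4.99 in EMBRYO CNT. Its part in the difference of sre-6 was not tested. srh-98 had 2, 3, 2 and 0 reads in L4 CNT, against 25, 16, 29 and 23 reads in EMBRYO CNT (log2 difference -2.69 ± 0.33). sri-30 had 6, 1, 4 and 4 reads in L4 CNT, against 21, 56, 44 and 31 reads in EMBRYO CNT (log2 difference -2.34 ± 0.25). sri-30 lies next to sri-29, which is also among the 94 and had a log2 difference of -1.90.

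The other 3 of the 10 most abundant genes, str-176, srsx-34 and srj-14, were within the fold change limit in both TM comparisons. str-176 (T01B11.5, chromosome IV, 8461038 to 8463814) had 11.6, 10.4, 8.82 and 13.6 FPKM in EMBRYO TM, against 18, 18.9, 18.9 and 18.2 FPKM in EMBRYO CNT (log2 difference -0.74 ± 0.12, limma adjusted p = 0.00276). In L4 TM it had 14.6 to 21.6 FPKM, against 18.9 to 27.1 FPKM in L4 CNT, with overlap (log2 difference -0.35, and -0.47 with limma adjusted p = 0.0571 without L4 TM replicate 4). srsx-34 (C25E10.3, chromosome V, 9036390 to 9040289) was the steadiest of the 10 highest, with means of 2.80 ± 0.53, 2.62 ± 0.27, 1.98 ± 0.37 and 2.37 ± 0.24 FPKM (SD, n = 4 each) in EMBRYO TM, EMBRYO CNT, L4 TM and L4 CNT, and its groups overlapped in all 3 comparisons. srj-14 had 2.68 to 3.26 FPKM in EMBRYO TM, against 4.81 to 5.83 FPKM in EMBRYO CNT (log2 difference -0.77 ± 0.10, limma adjusted p = 8.75e-04), and in L4 CNT it was 2.10 ± 0.15 lower than in EMBRYO CNT. In L4 TM srj-14 had 0.631, 0.541, 0.569 and 1.82 FPKM, the last in L4 TM replicate 4, against 0.743 to 1.22 FPKM in L4 CNT, and without that replicate its difference was -0.62 (limma adjusted p = 0.0452).

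The sum over the 94 genes was 106 to 137 FPKM in EMBRYO TM, against 172 to 193 in EMBRYO CNT, and 86.2 to 100.4 in L4 TM (86.2 to 91.5 without L4 TM replicate 4), against 111 to 126 in L4 CNT. The 94 genes were chosen by their group means, so these sums are a description. srw-86 alone averaged 13.2 FPKM in EMBRYO TM, against 46.5 in EMBRYO CNT. Without the 4 genes highest over all libraries the sums were 59.8 to 75.2 FPKM in EMBRYO TM, against 97.8 to 110 in EMBRYO CNT. Over the 1199 genes that did not reach the limit, the sum was 39.3 to 51.3 FPKM in EMBRYO TM, against 76.6 to 84.4 in EMBRYO CNT, and 18.9 to 27.8 in L4 TM, against 22.1 to 29.3 in L4 CNT. The overlap of these L4 sums came from L4 TM replicate 4, without which L4 TM had 18.9 to 19.7 FPKM. Markers of neurons were also lower in sum in EMBRYO TM than in EMBRYO CNT. The 12 markers of ciliated sensory neurons, genes of intraflagellar transport and the ciliary base, summed to 8.05 to 9.06 FPKM in EMBRYO TM, against 14 to 16.7 in EMBRYO CNT, and to 3.11 to 3.62 in L4 TM, against 3.26 to 3.84 in L4 CNT. The 10 pan-neuronal markers summed to 247 to 299 FPKM in EMBRYO TM, against 403 to 472 in EMBRYO CNT, and to 209 to 291 in L4 TM, against 252 to 313 in L4 CNT. Each of the 10 had a lower mean in EMBRYO TM than in EMBRYO CNT, but snb-1 and sbt-1 made up most of these sums. In EMBRYO TM and EMBRYO CNT snb-1 averaged 128 and 152 FPKM, and sbt-1 74.3 and 191. The L4 sums were mostly snb-1, at 184 FPKM in L4 TM and 195 in L4 CNT. Without L4 TM replicate 4 the pan-neuronal sums of L4 TM were 209 to 216 FPKM, below those of L4 CNT. The part of neurons in the sums of the 94 genes was not tested, and in RNA from whole worms fewer cells of a type and less RNA per cell cannot be told apart.

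**Figure D5:**
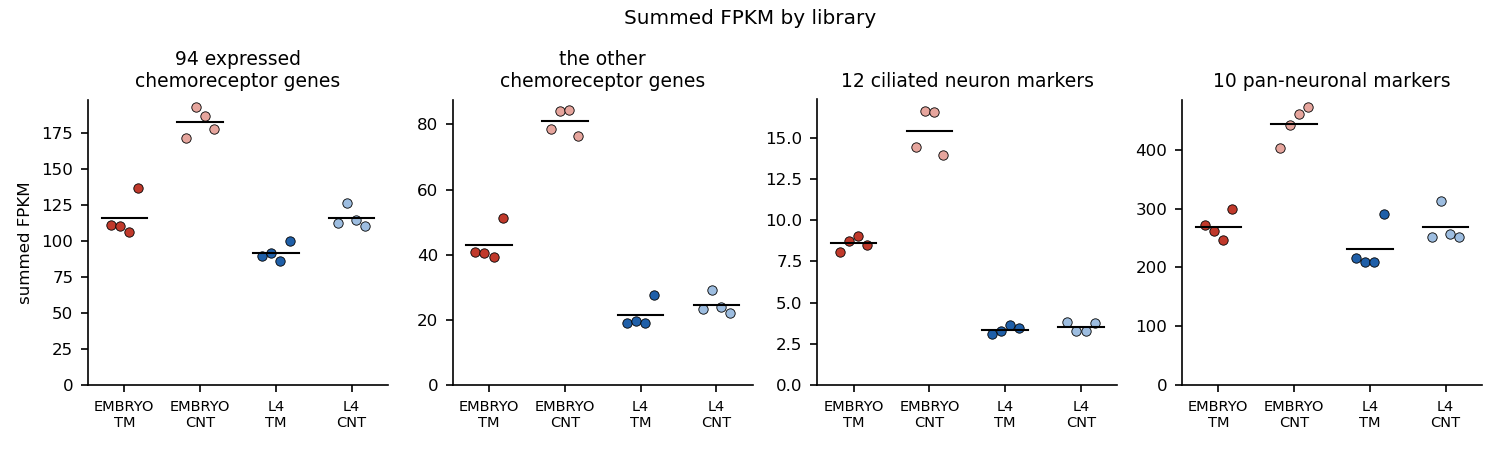
Summed FPKM per library (vertical axes, starting at 0) of the 94 expressed chemoreceptor genes, of the other 1199 chemoreceptor genes, of 12 ciliated neuron markers and of 10 pan-neuronal markers; points are libraries and bars group means. In all 4 panels the EMBRYO TM libraries lie below the EMBRYO CNT libraries, and in the panel of ciliated neuron markers the 8 L4 libraries lie lowest, at 3.11 to 3.84 FPKM. The 94 genes were chosen by their group means.

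Of the 12 ciliated neuron markers, 1 passed both thresholds in EMBRYO TM, osm-6 (lower), against 9.49% lower among all genes tested, and 11 were lower in L4 CNT than in EMBRYO CNT, against 30.7%. The count in EMBRYO TM depended on the rule. By adjusted p alone 9 of the 12 were lower, against 4494 of all 21102 genes. With voom on the recovered reads 5 of the 12 were called lower, against 2397 of all 21102 genes. The median log2 difference of the 12 was -0.72 in EMBRYO TM and -1.5 in L4 CNT, against -0.12 and -0.46 over all genes tested. The amphid sheath glia, which wrap the sensory endings, had 1 of 5 markers lower in EMBRYO TM and 4 of 5 lower in L4 CNT. Markers of other tissues moved in both directions in EMBRYO TM, with 3 of 5 muscle markers lower, 2 of 5 intestinal and 2 of 7 sperm markers higher. Sperm markers summed to 195 to 231 FPKM in EMBRYO TM, against 80.9 to 93.5 in EMBRYO CNT, and intestinal markers to 735 to 1089 FPKM, against 449 to 479. The sperm sum was mostly msp-31 and msp-142, at 138 and 52.3 FPKM, against 41.8 and 17.7. Of the other sperm markers, spe-9 and fer-1 had higher means in EMBRYO TM, and spe-11, spe-38 and spe-42 lower ones. The intestinal rise was mostly act-5 and vha-6, at 537 and 171 FPKM, against 107 and 57.8. elt-2 and ges-1 were also higher, and ifb-2 was lower, at 200 FPKM, against 259. The part of these tissues in the levels of the 94 genes was not tested.

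The rest of the signalling route was given by lists of its genes. Of 17 G protein subunit genes, 5 were lower in EMBRYO TM (gpa-3, gpa-6, gpa-8, gpa-9 and gpa-11), against 9.49% among all genes tested, with a median log2 difference of -0.79, against -0.12. In L4 CNT 9 of the 17 were lower than in EMBRYO CNT, against 30.7%, with a median of -1.08, against -0.46. None of 3 guanylyl cyclases and 9 signal regulators tested was called in EMBRYO TM by limma or by voom. Of the signal regulators, 8 were lower there at a limma adjusted p under 0.05 but within the fold change limit. No guanylyl cyclase was lower there even at an unadjusted p under 0.05. In L4 CNT 1 guanylyl cyclase and 7 signal regulators were lower than in EMBRYO CNT. gpa-9 averaged 1.07 FPKM in EMBRYO TM, against 3.90 in EMBRYO CNT. odr-3 averaged 1.93 FPKM, against 3.39, and passed neither threshold (limma adjusted p = 0.068). In L4 TM the gamma subunit gpc-1 was lower, at 0.496 to 0.654 FPKM, against 1.13 to 1.79 FPKM in L4 CNT, by a log2 difference of -1.09 (-1.15 without L4 TM replicate 4). Of the sensory channels, osm-9 was lower in EMBRYO TM, at 1.34 FPKM, against 3.48 FPKM in EMBRYO CNT, and its partner ocr-2 had 1.46 FPKM, against 2.64 FPKM, within the fold change limit. tax-2 and tax-4 were at or under 0.209 FPKM in each group, and the fate regulators che-1 of the ASE neurons and odr-7 of the AWA neurons at or under 0.048 FPKM.

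The genes odr-4 and odr-8, whose products help receptors reach the cilia, went the other way, within the fold change limit. odr-4 averaged 20.6 FPKM in EMBRYO TM, against 17.4 in EMBRYO CNT, and odr-8 averaged 38.4 FPKM, against 31.3 (limma adjusted p = 0.0111 and 0.0135). In L4 CNT the levels of odr-4 and odr-8 were 31.5 and 60.1 FPKM. The part of tissues other than sensory neurons in these levels was not tested. Chemoreceptors outside the 19 symbols were lower in EMBRYO TM in their means. daf-38, a receptor subunit for ascaroside pheromones, averaged 1.5 FPKM in EMBRYO TM, against 4.03 in EMBRYO CNT (log2 difference -1.30, limma adjusted p = 2.23e-04), and odr-10, the diacetyl receptor of the AWA neurons, averaged 0.384 FPKM, against 0.712 (limma adjusted p = 0.0839). All 4 such genes tested, odr-10, daf-37, daf-38 and sro-1, were lower in L4 CNT than in EMBRYO CNT past both thresholds.

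Genes of the 94 that lie next to each other moved alike in some places and not in others. Within 10 kb of each other lay 13 pairs. The C03G6 stretch of chromosome V holds srj-14, srx-56 and srsx-24, with log2 differences of -0.77, -1.52 and -1.37 in EMBRYO TM. Between L4 CNT and EMBRYO CNT their log2 differences were -2.10, -1.73 and -1.65. C03G6.17, 270 bases from srsx-24 on the same strand, averaged 4.86 FPKM in EMBRYO TM, against 40.1 in EMBRYO CNT. Its part in the difference of srsx-24 was not tested. sra-34 and sra-36, 1134 bases apart on 1 strand of chromosome II, differed, with log2 differences of -1.27 and -0.06 in EMBRYO TM. The EMBRYO groups alone admitted srx-56, srsx-24 and sra-34, so their differences are given with no test. These stretches were picked after their values were seen. Reads that match more than 1 gene of such an array may be split or dropped in counting, and the authors' treatment of them is not given in the sources read. Of the 94 genes, 13 overlap another gene, 11 of them on the other strand.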

How the data were processed

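Whole-worm polyA RNA of 16 libraries was sequenced, and the authors aligned the reads with HISAT2 (2.0.5), counted them with featureCounts (1.5.0-p3) and deposited FPKM values for 46589 genes. The authors' processing notes also name StringTie (1.3.3b), edgeR (3.22.5) and DESeq2. The genome build, and whether counting used strand, are not given in the sources used here. Symbols came from the WBcel235 annotation (46183 of 46589 genes matched). The authors' 4 columns of group means served only to choose the genes. Reads were recovered from FPKM times gene length, where 100% of values lay within 0.01 reads of a whole number.

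Tests used limma 3.58.1 (R 4.3.3) with a mean-variance trend on log2(FPKM + 0.25), for genes with a mean of at least 0.12 FPKM over the 16 libraries, on the 8 libraries of a comparison or all 16 for the interaction. P-values are two-sided and Benjamini-Hochberg adjusted over 21102 genes; all 94 chemoreceptor genes passed the filter. The pseudocount understates changes of low genes. The script was tested on simulated data. Tables and plots used Python 3.11.15, pandas 2.3.3 and matplotlib 3.10.9.

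Named were up to 6 genes per direction and test with the largest change and no overlap, the 10 highest, those of known expression, and those at the limit. The genes and lists were chosen with earlier results of these data known. Promoter and protein sequences were not analysed here.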

Additional observations from a re-analysis of the deposited data

Results flagged for a closer look

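The interaction value (L4 effect minus EMBRYO effect) had a limma adjusted p under 0.05 for 14 named genes. It was negative for sri-40 (-2.42), srh-237 (-2.01), srj-29 (-1.60), srg-31 (-1.53), srz-99 (-1.27), str-245 (-1.14) and srv-1 (-0.94). It was positive for srg-15 (1.85), srg-32 (1.73), srv-4 (1.72), srg-23 (1.68), srh-212 (1.62), sri-21 (1.56) and srx-56 (1.52). All of these were under 0.5 FPKM in both L4 groups, and srx-56 had no read in any L4 library. The EMBRYO groups, which are part of this test, admitted these genes, so the positive values are a description.

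In 13 of 115 sets of 4 libraries examined for the named genes, 1 library stood apart from the other 3 by Dixon's criterion, which chance meets in about 1 of 20. L4 TM replicate 4 was the highest of its group in 5 of them, with 3.57 FPKM for srd-64, 1.82 for srj-14, 1.26 for srsx-36, 0.359 for srg-23 and 20.2 for srv-1. Of the other L4 libraries, L4 CNT replicate 2 was lowest for sri-40 (22.4 FPKM) and highest for sre-6 (0.429 FPKM). L4 TM replicate 1 was highest for sre-6 (0.0910 FPKM) and sri-30 (0.0933 FPKM), L4 TM replicate 2 for srd-35 (0.343 FPKM) and L4 CNT replicate 4 for srh-46 (0.102 FPKM). Among the EMBRYO libraries, EMBRYO TM replicate 4 was highest for srsx-36 (0.166 FPKM) and EMBRYO CNT replicate 4 lowest for srg-23 (0.490 FPKM). Except for srd-64, srj-14, srsx-36, srv-1 and sri-40, these values rest on at most 15 reads.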

How the results depend on the processing

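The counts rested on few reads and on the scale. With a pseudocount of 1, 4 genes were lower in EMBRYO TM, 1 lower in L4 TM, 2 higher and 19 lower in L4 CNT against EMBRYO CNT, and 2 positive and 2 negative in the interaction. With 0.1, 9 were lower in L4 TM and 9 interactions were positive. With a mean of at least 1 FPKM required over the libraries compared, 8 were lower in EMBRYO TM (of 31 tested), 2 lower in L4 TM (of 13), 2 higher and 12 lower in L4 CNT (of 25), and the limma test of the interaction (19 tested) gave 0 positive calls, since none of the 14 genes was tested. Limma's voom on recovered reads gave 13 lower in L4 TM and 6 positive interactions. By adjusted p alone, EMBRYO TM had 5 higher and 53 lower and L4 TM had 11 lower. Rescaling, no filter and 1 model of all 16 libraries kept every count within 1.5 times its value. Leaving out each library in turn gave 26 to 35 lower in EMBRYO TM, 3 to 6 lower in L4 TM, 6 to 8 higher and 57 to 60 lower in L4 CNT, and 11 to 17 positive and 6 to 8 negative interactions.

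Direction turned only for differences that passed no threshold: sri-40 in L4 TM without L4 TM replicate 4 (-0.16 to 0.075 over the libraries left out), srsx-34 in EMBRYO TM without EMBRYO TM replicate 4 (-0.0083 to 0.20) and in L4 CNT with median-ratio rescaling (0.0075), and srz-99 in L4 CNT after rescaling to a common total (-0.042) or without EMBRYO CNT replicate 4 (-0.0067 to 0.22). The causes were not tested. Among the named genes' differences, 5 settings lost the adjusted p and 9 gained it; those lost were sri-21 (pseudocount 0.1 and voom) and srv-4 (voom) in the interaction, srw-86 in L4 TM without L4 CNT replicate 4 and srz-99 in EMBRYO TM with the replicate block. The deviations of libraries with the same replicate number had correlations of -0.21 to 0.12, and those of unlike numbers -0.26 to 0.33. Whether libraries with the same number were handled together was not tested. With the replicate number as a block, 28 genes were lower in EMBRYO TM and 12 interactions were positive, and the other 6 counts were the same.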
